A study of Mus musculus with 6 samples.

Results

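Immunity-related GTPases (IRG proteins) are a family of large GTPases that interferons induce in mouse cells, and the 10 genes described here were chosen by symbol. All 10 were found among the 26264 genes of the table, and all 10 were among the 17404 genes that entered the test, for which normalized counts had to average 10 or more. Each of the 10 also had a mean above 10 in each genotype. Bulk RNA-seq was performed on hematopoietic stem cells (HSCs) sorted from bone marrow as Lin-Sca-1+Kit+CD150+CD48- cells. There were 3 WT (C57Bl/6) and 3 *Irf1-/-* mice, all female, untreated and 8 weeks old, with 1 library per mouse. *P* values measure the spread between these mice. The *Irf1-/-* mice (B6.129S2-Irf1 tm1Mak/J) lack the transcription factor IRF1 in the whole body. DNA of the embryonic stem cell strain around the targeted locus goes with the genotype, and its part in any difference cannot be told apart from that of the allele. Libraries are named by the replicate numbers 2, 3 and 4.

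IRG proteins act in cell-autonomous defence against vacuolar pathogens. The GKS class, named after residues of its nucleotide-binding motif, includes effectors that load onto and disrupt the vacuole of parasites such as *Toxoplasma*. The GMS (IRGM) class sits on the cell's own membranes and keeps effectors inactive there. In mice without *Irgm1*, HSCs are known to proliferate more and to be impaired in function.

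Deposited values were read counts divided by 1 size factor per library, called normalized counts here. Reads on genes numbered 43138521, 57281017 and 45129929 in *Irf1-/-* replicates 2, 3 and 4. The WT libraries held 59658080, 45332573 and 43267486. Of these reads, the 10 IRG genes took 0.119%, 0.129% and 0.124% in WT replicates 2, 3 and 4. In the *Irf1-/-* libraries they took 0.0606%, 0.0621% and 0.0531%. The highest *Irf1-/-* share was below the lowest WT share. WT replicate 4 stood apart from the other 5 libraries in 3 granulocyte markers, and counts without it are given with the markers of other cell types. The summed normalized count of the family was 60857 ± 4520 (SD, *n* = 3) in WT and 27819 ± 2933 in *Irf1-/-* HSCs, or 45.7% of the WT mean. In bulk RNA, fewer cells that express these genes and less RNA per cell cannot be told apart.

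Genes were tested with limma on log2(normalized count + 1), a scale on which changes at low counts appear smaller. Calls required an adjusted *P* under 0.05, over all tested genes, together with a log2 fold change beyond 0.58 in either direction. Fold changes are *Irf1-/-* over WT. Of the 10 IRG genes, 9 were called lower in *Irf1-/-* HSCs, against 0.954% of all tested genes. None of the 10 was called higher by limma or edgeR, and 0 were higher at an unadjusted *P* under 0.05 in limma, which called 0.960% of all tested genes higher. In edgeR on the recovered reads, 9 of the 10 were called lower, against 0.931% of tested genes. In limma without the trend, which does not let the variance depend on expression, 6 of the 10 were called lower, against 0.190% of tested genes. *Igtp* (adjusted *P* = 0.164), *Irgm2* (0.202) and *Tgtp2* (0.151) lost their calls there. For all 10 genes the 3 *Irf1-/-* libraries lay below the 3 WT libraries, which held for 9.27% of tested genes. The median log2 fold change of the 10 was −1.92, and that of all tested genes was −0.0028.

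**Figure D1:**
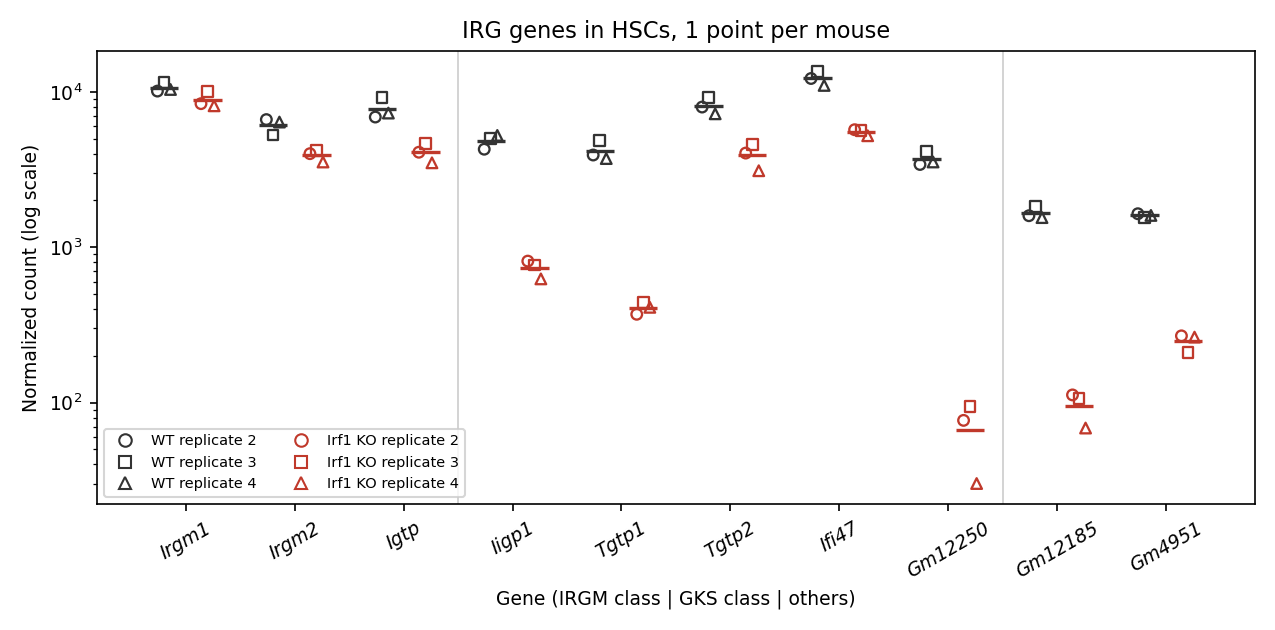
Normalized counts (log axis) of the 10 IRG genes in 3 WT (dark) and 3 *Irf1-/-* (red) HSC libraries, with 1 point per mouse, symbols for replicates 2, 3 and 4, and bars for group means. The genotypes do not overlap for any of the 10 genes, and the gap between them is narrowest for *Irgm1*, with means of 10638 and 8849, and widest on this axis for *Gm12250*, with means of 3689 and 67.0.

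The 3 GMS regulators had the smallest log2 fold changes of the 10 genes in the fit of all 6 libraries. *Irgm1* encodes the regulator studied in HSCs. Its normalized counts were 10111, 11451 and 10352 in WT replicates 2, 3 and 4 and 8392, 10028 and 8127 in the *Irf1-/-* replicates. The highest *Irf1-/-* library, replicate 3, came within 82.9 counts of the lowest WT library, replicate 2. The mean in *Irf1-/-* HSCs was 83.2% of the WT mean, and *Irgm1* was not called (log2 fold change −0.27, SE 0.098, adjusted *P* = 0.171, limma).

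*Irgm2*, another regulator of the GMS class, had 6627, 5276 and 6388 normalized counts in WT libraries and 3999, 4200 and 3534 in *Irf1-/-* libraries. WT replicate 3 was the lowest of the WT libraries and still above every *Irf1-/-* library. *Irgm2* was called, near the fold change threshold (−0.64, SE 0.11, adjusted *P* = 0.00453, limma). Its fall was under that threshold without *Irf1-/-* replicate 4 (−0.57) or WT replicate 2 (−0.57).

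*Igtp*, also known as *Irgm3*, had 6881, 9229 and 7298 normalized counts in WT libraries and 4085, 4657 and 3491 in *Irf1-/-* libraries. Replicate 3 was highest in both genotypes. *Igtp* fell to 52.3% of the WT mean (log2 fold change −0.93, SE 0.12, adjusted *P* = 8.94e-04, limma).

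Among GKS effectors, the fall ranged from about the size seen for *Igtp* to the largest of the family. *Gm12250* encodes IRGB10, which is known to act on bacterial membranes upstream of inflammasomes. Its normalized counts were 3407, 4125 and 3535 in WT and 76.8, 94.2 and 30.1 in *Irf1-/-* HSCs. All 3 *Irf1-/-* values were far below the WT range, and replicate 4 was the lowest of them. *Gm12250* was at 1.82% of the WT mean (log2 fold change −5.91, SE 0.31, adjusted *P* = 6.47e-08, limma), a 55.0-fold fall in means, from 3689 ± 383 (SD, *n* = 3) to 67.0 ± 33.1. With each library left out in turn, its log2 fold change ranged from −6.22 to −5.42.

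*Tgtp1* and *Tgtp2* both encode IRGB6, an effector that marks vacuoles early. *Tgtp1* had 3920, 4843 and 3719 normalized counts in WT libraries and 370, 442 and 410 in *Irf1-/-* libraries. *Tgtp2* had 7979, 9218 and 7219 in WT and 4034, 4593 and 3105 in *Irf1-/-* HSCs. *Tgtp1* thus fell 10.2-fold in means (log2 fold change −3.34, SE 0.13, adjusted *P* = 6.49e-09, limma) and *Tgtp2* 2.08-fold (−1.07, SE 0.13, adjusted *P* = 4.36e-04, limma). *Tgtp1* took 32.9%, 34.4% and 34.0% of the counts of the pair in WT replicates 2, 3 and 4 and 8.40%, 8.77% and 11.7% in the *Irf1-/-* libraries. The shares did not overlap between genotypes.

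How the counts of this pair were split is uncertain. In GENCODE vM1 transcripts the coding sequences of *Tgtp1* and *Tgtp2*, 1248 bases each, differ at 4 bases (99.7% identity). Of the 100-base windows of the longest *Tgtp1* transcript, 80.0% also occur in *Tgtp2*, so a single read of 100 bases from them fits both genes. The libraries were sequenced from both ends of each fragment, and a mate outside such a stretch could place a pair. The share of pairs that fit both genes was not computed. In the same annotation 223 exon bases of *Tgtp1* are also annotated as *Gm12185*. Summed over the pair, normalized counts were 11898, 14061 and 10938 in WT and 4404, 5034 and 3515 in *Irf1-/-* HSCs. The sum fell 2.85-fold in means (log2 fold change −1.52, SE 0.13, adjusted *P* = 9.00e-06, limma), so the fall of the pair does not rest on the split.

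*Iigp1* encodes IRGA6, an effector that coats parasite vacuoles. It had 4272, 4986 and 5238 normalized counts in WT libraries and 813, 769 and 625 in *Irf1-/-* libraries. The highest *Irf1-/-* value was far below the lowest WT value. *Iigp1* fell 6.57-fold in means (log2 fold change −2.72, SE 0.12, adjusted *P* = 2.31e-08, limma).

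*Ifi47*, also called *Irgd*, had 12185, 13544 and 10994 normalized counts in WT libraries and 5703, 5635 and 5214 in *Irf1-/-* libraries. The *Irf1-/-* libraries lay close together and apart from WT. *Ifi47* fell 2.22-fold in means (log2 fold change −1.15, SE 0.094, adjusted *P* = 7.65e-06, limma).

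Less is known of the last 2 genes. *Gm12185*, listed as *Irgb2b1*, had 1594, 1832 and 1550 normalized counts in WT libraries and 112, 106 and 68.5 in *Irf1-/-* libraries. The *Irf1-/-* libraries were all far below WT. *Gm12185* fell 17.4-fold in means (log2 fold change −4.13, SE 0.21, adjusted *P* = 3.80e-08, limma). *Gm4951* had 1642, 1556 and 1601 in WT and 269, 210 and 264 in *Irf1-/-* HSCs. Its WT libraries varied least of the 10 genes, with an SD of 42.7 around a mean of 1600. *Gm4951* fell 6.46-fold in means (log2 fold change −2.70, SE 0.15, adjusted *P* = 1.20e-07, limma).

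These unequal falls altered the makeup of the family's counts. The GMS genes *Irgm1*, *Irgm2* and *Igtp* made up 40.3%, 39.3% and 41.5% of them in WT replicates 2, 3 and 4. In the *Irf1-/-* replicates they made up 59.2%, 61.4% and 60.9%. The summed GMS count in *Irf1-/-* HSCs was 68.6% of the WT mean, and that of the other 7 genes was 30.2%. The 7 include *Tgtp1* and *Tgtp2*, whose sum does not depend on the split.

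Within a genotype, some libraries were highest or lowest for most of the genes. WT replicate 3 was the highest WT library for 7 of the 10 genes. *Irf1-/-* replicate 3 was the highest of its genotype for 6, and *Irf1-/-* replicate 4 the lowest for 8. The median deviation of the 10 genes from their group means was 0.15 on the log2 scale in WT replicate 3, where that of all tested genes was 0.021. It was also 0.15 in *Irf1-/-* replicate 3, and 0.016 over all tested genes. In *Irf1-/-* replicate 4 it was −0.18, and 0.0032 over all tested genes. In *Irf1-/-* replicate 2, WT replicate 2 and WT replicate 4 the median deviation of the 10 genes was 0.056, −0.062 and −0.070. Normalization keeps the median over all genes near 0, so it is no measure of the spread of a median over 10. Whether the 10 genes moved together was not tested.

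Levels of different genes were compared per kilobase of annotated exon in GENCODE vM1, and the order holds for these lengths only. Annotated exons span 5810 bases for *Irgm1*, 2317 for *Ifi47* and 2022 for *Igtp*. The transcripts compared for similarity have 2259, 1766 and 2022 bases. On transcript lengths *Irgm1* would come before *Igtp* in WT HSCs. In WT HSCs *Ifi47* was highest at 5283 normalized counts per kilobase, followed by *Igtp* at 3859 and *Tgtp2* at 2770, with no overlap between libraries. *Irgm1* (1831), *Irgm2* (1755), *Iigp1* (1548), *Gm12250* (1365) and *Tgtp1* (1298) followed, each overlapping the next. The places of *Tgtp1* and *Tgtp2* in either genotype rest on the split of their counts, which is uncertain. *Gm4951* at 605 and *Gm12185* at 297 per kilobase were lowest. In *Irf1-/-* HSCs *Ifi47* (2381) and *Igtp* (2017) were still first on exon length and overlapped, and *Irgm1* (1523) came before *Tgtp2* (1331), with overlap. On transcript lengths *Irgm1* would come before both *Ifi47* and *Igtp* in these HSCs. *Gm12250* moved from place 7 to place 9, at 24.8 per kilobase, and overlapped *Gm12185* at 17.1.

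Other genes of the IRG fold were taken from a list of 10, of which 7 were found by symbol and 6 were tested. Of these, 3 were called lower and 0 higher by limma, against 0.954% and 0.960% of all tested genes. edgeR likewise called none of the 6 higher, and 0 of the 6 were higher at an unadjusted *P* under 0.05 in limma. *Gm4841* had 486, 571 and 417 normalized counts in WT libraries and 28.8, 21.6 and 34.3 in *Irf1-/-* libraries (log2 fold change −4.09, adjusted *P* = 2.21e-06, limma). *F830016B08Rik* fell from 557 ± 20.5 (SD, *n* = 3) to 47.7 ± 21.8 (−3.64, adjusted *P* = 2.89e-05, limma). *Gm5431* fell from 147 ± 10.9 to 37.3 ± 16.7 (−2.04, adjusted *P* = 0.0109, limma). This call was lost without WT replicate 3 (−1.98, adjusted *P* = 0.0574, limma). In limma without the trend the calls of *F830016B08Rik* (adjusted *P* = 0.0511) and *Gm5431* (adjusted *P* = 0.127) were lost, and *Gm4841* was called. These 3 genes were low in every *Irf1-/-* library and did not overlap between genotypes. All *Irf1-/-* libraries lay below all WT libraries for 9.27% of tested genes. *9930111J21Rik1* (285 ± 24.0 in WT, 160 ± 47.8 in *Irf1-/-*) was not called (−0.87, adjusted *P* = 0.0915, limma). The lack of a call depended on the method, since DESeq2 (−0.83, adjusted *P* = 0.0192) and limma after quantile normalization (−0.997, adjusted *P* = 0.0497) called it lower, and adjusted *P* reached 0.353 over the alternatives. It shares 63.0% of its 100-base windows with *9930111J21Rik2* (22.6 ± 4.56 and 32.6 ± 6.94, not called). *Gm5431* shares 26.4% of its windows with other IRG genes, among them 18.6% with *9930111J21Rik1* and 16.6% with *9930111J21Rik2*, so the counts of all 3 genes are uncertain. *Irgq*, which encodes a diverged member of the fold, had 2200 ± 80.9 in WT and 2410 ± 139 in *Irf1-/-* libraries, without a call (0.13, adjusted *P* = 0.581, limma). *Irgc1*, known from testis, was listed at 0 in all libraries but *Irf1-/-* replicate 4, where it was at 3.11 normalized counts.

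Guanylate-binding proteins are interferon-induced GTPases that act with IRG proteins on vacuoles. Of 11 tested, 8 were called lower and 0 higher by limma, against 0.954% and 0.960% of all tested genes. The median log2 fold change of the 11 was −1.33. No guanylate-binding protein gene was higher at an unadjusted *P* under 0.05 in limma or called higher by edgeR. *Gbp10* fell from 407 ± 113 (SD, *n* = 3) to 15.7 ± 8.86 normalized counts (−4.72, adjusted *P* = 2.29e-05, limma). *Gbp4* (−2.83), *Gbp6* (−2.19), *Gbp8* (−1.52), *Gbp3* (−1.33) and *Gbp2* (−1.25) were called and kept their calls with any 1 library left out. *Gbp11* (−3.27) lost its call without *Irf1-/-* replicate 2 (−3.10), *Irf1-/-* replicate 3 (−2.78) or WT replicate 3 (−3.11). *Gbp9* (−0.71) was not called when *Irf1-/-* replicate 2 (−0.73), *Irf1-/-* replicate 3 (−0.54), WT replicate 3 (−0.65) or WT replicate 4 (−0.59) was left out. In limma without the trend *Gbp2*, *Gbp8* and *Gbp10* were called, and *Gbp4* (adjusted *P* = 0.0597), *Gbp6* (0.168), *Gbp3* (0.214), *Gbp11* (0.317) and *Gbp9* (0.346) lost their calls. *Gbp7* was past the adjusted *P* threshold and short of the fold change threshold (−0.42, adjusted *P* = 0.0138, limma). *Gbp* genes are similar in sequence, and reads could be shared between them.

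**Figure D2:**
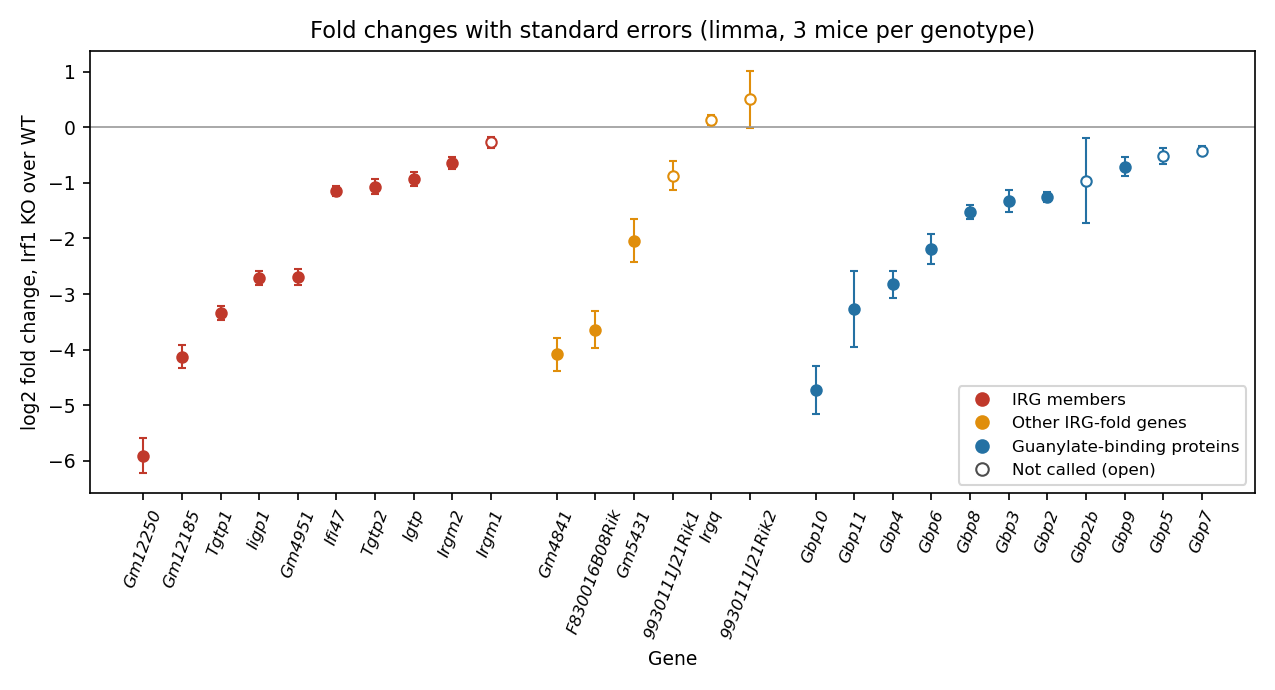
Log2 fold changes (*Irf1-/-* over WT, limma, *n* = 3 mice each) with standard errors for the 10 IRG genes, 6 other genes of the IRG fold and 11 guanylate-binding protein genes, sorted within each set, with open points for genes that were not called. The IRG genes range from −5.91 (*Gm12250*) to −0.27 (*Irgm1*), and *Irgq* and *9930111J21Rik2* lie above 0 without a call.

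Interferon receptors and signalling genes were a list of 20, all tested. The median log2 fold change of the list was 0.050, and 1 gene was called higher, against 0.960% of all tested genes. *Socs3*, a feedback inhibitor of cytokine receptors, had 694, 568 and 892 normalized counts in WT libraries and 1562, 1724 and 1541 in *Irf1-/-* libraries (1.19, SE 0.15, adjusted *P* = 7.37e-04, limma). The lowest *Irf1-/-* value of *Socs3* was above the highest WT value, and the call was lost in limma without the trend (adjusted *P* = 0.120). For *Irf1* itself, *Irf1-/-* values lay between 9267 and 9524 and WT values between 10122 and 12057 (log2 fold change −0.24, adjusted *P* = 0.170, limma). A count over the whole gene includes exons outside the replaced segment, so it does not check the genotype labels.

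Genes of processes in which IRG proteins are known to take part were also listed. Of 15 genes of ATG8 conjugation, 15 of autophagy initiation and cargo receptors, 10 of mitochondrial fission and mitophagy and 4 ubiquitin ligases and adaptors, 0 were called by limma. edgeR called 0 of these 44 as well, and 8 had an unadjusted *P* under 0.05 in limma, as did 2863 of all 17404 tested genes (16.5%). *Ulk1*, a kinase that starts autophagy (0.42, adjusted *P* = 0.0457, limma), and *Atg14*, a subunit of the autophagy lipid kinase complex (0.41, adjusted *P* = 0.0326, limma), were past the adjusted *P* threshold and short of the fold change threshold. Their log2 fold changes ranged from −0.34 to 0.42, with medians of 0.0071, 0.089, −0.0089 and −0.12 in the order given.

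The IRG genes lie in 3 groups. In the gene order of the GRCm38.p6 reference table, chromosome 11 holds 5 of the 10 from *Irgm1* to *Ifi47* and 3 from *Gm12250* to *Irgm2*, with *Irf1* between these groups. *Gm4951* and *Iigp1* lie together on chromosome 18. All 3 groups hold genes called lower, and on chromosome 18 these are *Gm4951* and *Iigp1*. The part of the embryonic stem cell strain's DNA was not tested for any group. Among the 10 nearest tested genes on each side of the 3 groups and of *Irf1*, 80 in all, 3 were called lower and 0 higher by limma. In edgeR 3 of the 80 were called lower and 0 higher. Of all tested genes, limma called 0.954% lower and 0.960% higher. At an unadjusted *P* under 0.05 in limma, 9 of the 80 were lower and 9 higher, where 8.07% of all tested genes were lower and 8.38% higher. The 3 genes called by limma were named after their values were seen. They are *Cd74* beside the chromosome 18 group (−5.45), *Gm12216* beside *Irf1* (−1.08), and *Trim58* beside *Irgm2* (−0.93). *Trim58* was not called when *Irf1-/-* replicate 2 (−1.07), 3 (−0.87) or 4 (−0.84) or WT replicate 3 (−0.66) was left out. Between the chromosome 11 groups, 2 of 105 tested genes other than *Irf1* were called lower and 2 higher, against 0.954% and 0.960% of all tested genes, and the median log2 fold change of the 105 was 0.0048. Those called lower are *Gm12216*, also counted among the 80, and *Lyrm7*. Those called higher are *Sparc* (1.68), not called without *Irf1-/-* replicate 2 (1.52), and *Gm2a* (0.58), under the fold change threshold without *Irf1-/-* replicate 3 (0.57) or WT replicate 3 (0.53) or 4 (0.55) and in edgeR and DESeq2. In limma without the trend these 6 named genes were not called, with an adjusted *P* between 0.0697 and 0.317.

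The 5 tested genes outside the family with profiles nearest to the median IRG profile were *Phf11d*, *Aldh1a1*, *Gbp8*, *Insl6* and *Itgb7*. Nearness was the Euclidean distance between centred log2 values over the 6 libraries, between 0.402 and 0.521. The nearest of the 10 IRG genes, *Ifi47*, was at 0.897. *Phf11d* had 398 ± 17.3 (SD, *n* = 3) normalized counts in WT libraries and 102 ± 20.7 in *Irf1-/-* libraries. *Aldh1a1*, a retinaldehyde dehydrogenase, had 4606 ± 430 and 1487 ± 98.8.

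Promoter sequences (RefSeq, GRCm38.p6), 250 bases before to 50 bases after each start, were matched for 8 of the 10 genes. They were searched on both strands for GAAANNGAAA, the repeat that IRF proteins are known to bind, and for TTCNNNGAA, the core of the gamma-activated site, which reads the same on both strands. In the bases before the start, GAAANNGAAA occurred in 7 of the 8 and TTCNNNGAA in 6. Of all 32851 promoters in the table, 2.98% and 7.02% hold them there (3.44% and 8.30% in the whole window), and 0.332% hold both. *Ifi47* held neither in this window. Among other genes of the IRG fold, the promoters of *Irgq*, *9930111J21Rik1*, *9930111J21Rik2* and *Gm5431* held neither before the start, and *Gm5431* was called lower. The stretches with the matches are shown with both motifs in capitals, for 6 genes called lower and for *Irgm1*, which was not called.
Igtp: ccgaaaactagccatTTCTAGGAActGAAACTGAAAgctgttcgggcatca
Irgm2: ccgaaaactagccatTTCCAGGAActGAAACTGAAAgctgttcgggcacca
Tgtp1: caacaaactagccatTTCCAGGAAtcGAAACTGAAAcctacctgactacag
Tgtp2: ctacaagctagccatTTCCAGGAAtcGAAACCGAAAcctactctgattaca
Gm12185: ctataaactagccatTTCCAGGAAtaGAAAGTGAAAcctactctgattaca
Irgm1: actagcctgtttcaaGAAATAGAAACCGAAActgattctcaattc
Gm12250: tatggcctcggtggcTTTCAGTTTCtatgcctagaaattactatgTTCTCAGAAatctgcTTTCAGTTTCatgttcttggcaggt

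These stretches lie at chr11:58199496-58199546 (*Igtp*, plus strand), chr11:58214887-58214937 (*Irgm2*, plus), chr11:48992299-48992349 (*Tgtp1*, minus), chr11:49064258-49064308 (*Tgtp2*, minus), chr11:48927233-48927283 (*Gm12185*, minus), chr11:48871421-48871465 (*Irgm1*, minus) and chr11:58183737-58183821 (*Gm12250*, plus). All are upstream of the annotated start. In the first 5, TTCNNNGAA is followed after 2 bases by GAAANNGAAA. A search for this arrangement, made after the sequences were seen, found it before the start in 5 of the 32851 promoters, the 5 shown. The arrangement was read from these 5, so finding it in them was given in advance. All 5 also share the bases ctagccat before the first motif. They cannot be taken as independent cases, in this count or in those of each motif. *Irgm1* holds 2 overlapping copies of GAAANNGAAA and no TTCNNNGAA, and *Gm12250* holds 2 copies on the opposite strand with TTCNNNGAA between them. A match describes letters in these windows and does not show binding.

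Markers of other cell types were counted beside the family. *Kit*, *Slamf1* and the other HSC markers were detected in all 6 libraries, and *Cd48*, absent from the gate, was at 257 to 431 normalized counts. Of 5 megakaryocyte markers, *Pf4* and *Gp1bb* were called lower. The list summed to 47319, 60305 and 45164 in WT and 40363, 24765 and 35754 in *Irf1-/-* HSCs, with *Itga2b* at 73.8% of it and no marker at 0 throughout. Of 6 erythroid markers 3 were tested, and *Klf1* and *Car1* were called lower. The call of *Klf1* (−0.72) needed replicates 2 and 3 of both genotypes, and its log2 fold change was −0.83 to −0.50 when any of these was left out. *Car1* (−3.51) lost it without *Irf1-/-* replicate 3 (−2.60) or 4 (−3.16) and was not called by edgeR (−2.48, adjusted *P* = 0.0887). The erythroid list summed to 3102, 2380 and 3838 in WT and 1761, 663 and 1046 in *Irf1-/-* HSCs, led by *Car1* (49.5%), with *Hba-a1*, *Hbb-bs* and *Hbb-bt* listed at 0 throughout. *Flt3*, a marker of multipotent progenitors, was called higher (0.67) and lost its call without any *Irf1-/-* replicate or WT replicate 3 (0.45 to 0.74). Of 8 HSC markers, *Fgd5* was called higher (0.83), and 5 were higher and 1 lower at an unadjusted *P* under 0.05 in limma. *Ly6a*, which encodes the gate marker Sca-1, had 6908, 7439 and 7692 normalized counts in WT and 4974, 6047 and 5376 in *Irf1-/-* HSCs, without overlap. *Ly6a* (−0.43, adjusted *P* = 0.0245, limma) and *Procr* (0.52, adjusted *P* = 0.0112, limma) were past the adjusted *P* threshold and short of the fold change threshold. Of the macrophage and dendritic, B, T and NK, granulocyte, and endothelial and stromal lists, 30 genes were tested. Of the 30, 0 were called by limma or edgeR, and 3 had an unadjusted *P* under 0.05 in limma. Of all tested genes, limma called 0.954% lower and 0.960% higher, and 16.5% had an unadjusted *P* under 0.05. The macrophage and dendritic, B, and T and NK lists summed to means of 29903, 2829 and 3556 normalized counts in WT. In *Irf1-/-* HSCs the means were 32288, 3006 and 3024. *Lyz2* (86.8%), *Cd79b* (96.0%) and *Nkg7* (82.5%) led these lists, and *Gzma* was listed at 0 throughout.

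Of the 6 granulocyte markers, *Ngp*, *S100a8* and *S100a9* set 1 library apart. The other 3, *Elane*, *Mpo* and *Prtn3*, were at 64.5, 253 and 6445 normalized counts in WT replicate 4. In *Irf1-/-* replicate 4 they were at 67.5, 355 and 9879. *Ngp*, which encodes a neutrophil granule protein, was at 30.4, 24.8 and 2535 normalized counts in WT replicates 2, 3 and 4 and between 62.9 and 127 in *Irf1-/-* libraries. *S100a8* was at 1033 and *S100a9* at 1246 in WT replicate 4, and at 13.5 to 110.04 and 10.1 to 131 in the other 5 libraries. These genes encode the subunits of calprotectin, which is abundant in neutrophils, and all 3 were far higher in WT replicate 4 than in any other library. The list of 6 summed to 6602, 5155 and 11576 in WT and 8051, 8251 and 10669 in *Irf1-/-* HSCs, led by *Prtn3* (85.1%), with no marker at 0 throughout. *Prtn3* was past the adjusted *P* threshold and short of the fold change threshold (0.53, adjusted *P* = 0.0334, limma). Without WT replicate 4, 9 of the 10 IRG genes were called lower, and their median log2 fold change was −1.94. Over all tested genes, 265 were then called lower and 305 higher, in place of 166 and 167. In limma without the trend the 6 called markers (*Pf4*, *Gp1bb*, *Klf1*, *Car1*, *Flt3* and *Fgd5*) were not called, with an adjusted *P* between 0.0511 and 0.358. The part of any marker in the falls of IRG genes was not tested.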

How the data were processed

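Bulk RNA-seq of 3 WT and 3 *Irf1-/-* HSC libraries, 1 per mouse, was grouped by the labels. Trim Galore, HISAT2 and the build mm39 are named in the submitters' processing notes. The authors counted reads per gene with Htseq-count and deposited a signal, namely these counts scaled by DESeq2 size factors, 1 for each library. The strand setting is not given in the sources used here. The labels number replicates in 2 ways, and those that match the table's columns were used. The SMART-Seq libraries carry no molecular identifiers, so reads are not independent molecules.

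All values (100%) were whole multiples of 1 read, within 0.01 read, so whole reads were recovered. The test between genotypes was that of limma 3.58.1 (R 4.3.3), with lmFit, eBayes with trend, and Benjamini-Hochberg adjustment. On the recovered reads, edgeR 4.0.16 (quasi-likelihood, TMM) called 162 genes lower and 165 higher, and DESeq2 1.42.0 was another alternative. Libraries of a genotype differed by far more than counting noise (chi-square per gene at least 16.2). Gene order came from a GRCm38.p6 table that matched 99.9% of tested symbols, and exon lengths and transcripts came from GENCODE vM1 by symbol. Neither is the build of the files, so they served for order, lengths and similarity. *Gm12250* has no coding transcript in the latter set. Figures were drawn with matplotlib 3.10.9.

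Members and lists were chosen with earlier results of these data known. Named genes are the 10 members, the detected genes of the IRG fold, *Irf1*, every called gene of the fixed lists, the interferon-list genes with the lowest and highest fold change, and the 5 genes with the nearest profiles. One gene that the rule covers is not reported here. Called neighbours, called genes between the chromosome 11 groups, markers, *Gbp7*, *Ulk1* and *Atg14* were named after their values were seen.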

Additional observations from a re-analysis of the deposited data

How the results depend on the processing

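Over the 10 IRG genes and 18 alternatives each, 175 of 180 fits kept the call, or the lack of one for *Irgm1*, and 0 reversed the direction. The 5 lost calls were those of *Igtp*, *Irgm2* and *Tgtp2* without the trend in limma (adjusted *P* up to 0.202) and of *Irgm2* without *Irf1-/-* replicate 4 or WT replicate 2. Between 6 (without the trend) and 9 of the 10 genes were called lower. Over all tested genes, limma without the trend called 33 lower and 7 higher, an adjusted *P* under 0.01 gave 104 and 63, and no minimum fold change gave 260 and 301. DESeq2 called 209 genes lower and 295 higher. Leaving out each library in turn gave between 105 and 265 genes lower and between 83 and 305 higher. Without the trend, 4 in place of 13 genes of the fixed lists were called, and 0 in place of 3 neighbours, of which 14 had an unadjusted *P* under 0.05 in that limma fit and 3 were called by edgeR. The causes were not tested.

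Whether replicate numbers pair the libraries was not settled, and the main test did not pair them. Deviations of same-numbered libraries correlated at −0.094, 0.246 and 0.147 across genes, and 3 of 6 libraries correlated best with their own number. With the number as a block, 196 genes were called lower and 219 higher, among them 9 of the 10 IRG genes.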
